A study of Mus musculus with 16 samples.

Results

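The genes described here encode the proteins of the cytosolic ribosome. They are the 85 of 51179 rows of a mouse RNA sequencing table whose symbol has the form Rps or Rpl followed by a number, or is Rplp0, Rplp1 or Rplp2. Of these, 31 Rps genes belong to the small subunit and 54 Rpl or Rplp genes to the large subunit. Rows with a -ps symbol and the kinases of Rps6 were left out by the same pattern. Ribosomal proteins whose symbols do not have that form, such as Rpsa, Rack1 and Fau, were counted separately. In the GENCODE M21 annotation 82 of the 85 were typed protein-coding, Rpl6l and Rpl32l were typed processed pseudogenes, and Rpl37rt was not matched.

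The small subunit reads the mRNA and the large subunit joins the amino acids, and nearly all of the proteins are needed in equal amounts. Ribosomal protein mRNAs usually start with a C followed by a run of pyrimidines, the 5′ terminal oligopyrimidine (TOP) motif, through which mTORC1 and Larp1 control their translation. In blood, these mRNAs make up a larger part of the RNA of lymphocytes than of platelets, which have no nucleus. In humans, heterozygous mutations in several ribosomal protein genes cause Diamond-Blackfan anaemia.

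Total RNA of peripheral blood mononuclear cells (PBMCs), which had been separated on Ficoll, treated with a red cell lysis buffer, frozen and thawed, was sequenced in 16 libraries after random priming. All mice were C57BL/6N. The chow group (5 libraries) had regular food, the HFD + L-NAME group (5 libraries) had a high-fat diet with L-NAME, an inhibitor of endothelial nitric oxide synthase, for 15 weeks, and the HFD + L-NAME + NO2-OA group (6 libraries), called the NO2-OA group from here on, also received NO2-OA, nitro-oleic acid, for the last 4 of these weeks. The diet and the inhibitor together serve as a model of heart failure with preserved ejection fraction, and none of the libraries analysed here had either of them alone or NO2-OA on chow. The labels number the libraries within a group without saying that each came from its own mouse, so p-values measure the spread between these libraries.

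The values were TPM (transcripts counted per length and scaled to the same sum, 1000000, in each library), and the whole read numbers behind them ranged from 4.94 M to 25.5 M (M for 1000000 reads) per library. The 8 B cell and 8 T cell markers were above 1 TPM in every library. Summed platelet markers spanned 321 to 31976 TPM and summed erythroid markers 779 to 161264 TPM over the libraries. All or all but 1 of 8 markers of resident peritoneal macrophages exceeded 1 TPM in libraries 1 and 2 of the chow group and 1 and 5 of the HFD + L-NAME group, where they summed to between 329 and 758 TPM. In the other 12 libraries at most 1 of the 8 did so, their sum was at most 1.95 TPM, and Timd4 was at 0. In chow 3, HFD + L-NAME 5 and NO2-OA 2, genes whose length in the table was under 50 bases took 47.4%, 65.5% and 65.8% of TPM, against at most 13.8% elsewhere, although at most 2.18% of reads. The library numbers in the labels fall into 2 runs of consecutive numbers, and chow 1, chow 2, HFD + L-NAME 1, HFD + L-NAME 5 and NO2-OA 2 form the second. Summed shares and the medians of members and lists are also given for run 1 alone, and differences of single members are over all libraries unless stated.

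Sequences at the start of 8 members are shown first, since the pyrimidine run there is the feature this gene family is known for: 4 members with the longest runs, Rplp2 and Rps6 with shorter ones, and Rpl13a and Rps10, which stand out below for their low levels. Each is 30 bases of RefSeq (GRCm38.p6), 15 before and 15 from the annotated transcription start, 5′ to 3′, with the longest run of C followed by pyrimidines in capitals. Rpl27a lies at chr7:109519180-109519209 on the plus strand, Rpl7a at chr2:26910792-26910821 on the plus strand, Rpl35 at chr2:39005117-39005146 on the minus strand, Rpl15 at chr14:18270972-18271001 on the minus strand, Rplp2 at chr7:141447636-141447665 on the plus strand, Rps6 at chr4:86857353-86857382 on the minus strand, Rpl13a at chr7:45128731-45128760 on the minus strand and Rps10 at chr17:27635230-27635259 on the minus strand.
Rpl27a: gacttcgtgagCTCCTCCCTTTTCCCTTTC
Rpl7a: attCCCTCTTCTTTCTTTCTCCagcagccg
Rpl35: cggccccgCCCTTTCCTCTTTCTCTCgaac
Rpl15: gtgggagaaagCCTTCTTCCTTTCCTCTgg
Rplp2: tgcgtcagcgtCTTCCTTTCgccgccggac
Rps6: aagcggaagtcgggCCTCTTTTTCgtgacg
Rpl13a: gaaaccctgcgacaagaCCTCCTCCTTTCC
Rps10: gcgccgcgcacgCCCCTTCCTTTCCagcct

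Promoters were listed for 63 of the 85 members, with 75 windows in all. A C followed by at least 4 pyrimidines lay within 15 bases of the start, on the transcribed strand, in 45 of the 75 windows (60%) and in 36.4% of all 32817 windows. The letters CTTTCC lay in the same stretch in 14.7% of member windows and 1.41% of all windows. In the 250 bases before the start, on both strands, CGGAAG, the core of sites for ETS factors such as GABP, occurred in 44.0% of member windows against 13.6% of all. GGGCGG, the core of an Sp1 site, occurred in 46.7% against 32.7%, and TATAAA in 5.33% against 12.4%. The palindromic consensus of NRF1 was in 0 of the 75 windows and in 0.777% of all. The first 2 searches overlap, since CTTTCC is itself a C followed by pyrimidines. A long run was found both in members of middle level such as Rpl27a, at a mean of 163 TPM over the 16 libraries, and in Rps10, at 5.15 TPM.

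The members covered a wide range of levels, compared here as TPM, which is per length. Over the 16 libraries the median of their mean TPM was 164, with 67 members at 100 TPM or more, 8 between 20 and 100 and 10 under 20. Small-subunit genes had a median of 198 TPM and large-subunit genes one of 159 TPM. The highest was Rplp1, an acidic protein of the P stalk that recruits elongation factors, at 1585 TPM, followed by Rps29, a zinc-binding protein, at 872, Rpl36 at 792, Rps15, needed for export of the small subunit from the nucleus, at 766 and Rps27, another zinc-binding protein, at 702 TPM. Rplp0, the base of the same stalk, had 557 TPM, Rpl41, the shortest ribosomal protein, 554, Rpl38, whose loss alters the translation of Hox mRNAs in mouse embryos, 516 and Rps23, a protein of the decoding centre, 474 TPM.

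In the deposited TPM the length used was the exon length less 149 bases for 95.9% of 9137 genes checked, which raises short genes relative to long ones. Recomputed over the full exon length, the order of members hardly moved (Spearman's rho 0.99 across 83 genes, a description), although Rpl36, of 383 bases, went from rank 3 to rank 6 and Rps27rt, of 374 bases, from rank 30 to rank 53. Against reads per length of the main transcript the same correlation across genes was 0.70, and Rpl36 stood at rank 32 there. The exon length takes in every annotated exon of a gene, which came to 6256 bases for Rps24.

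**Figure D1:**
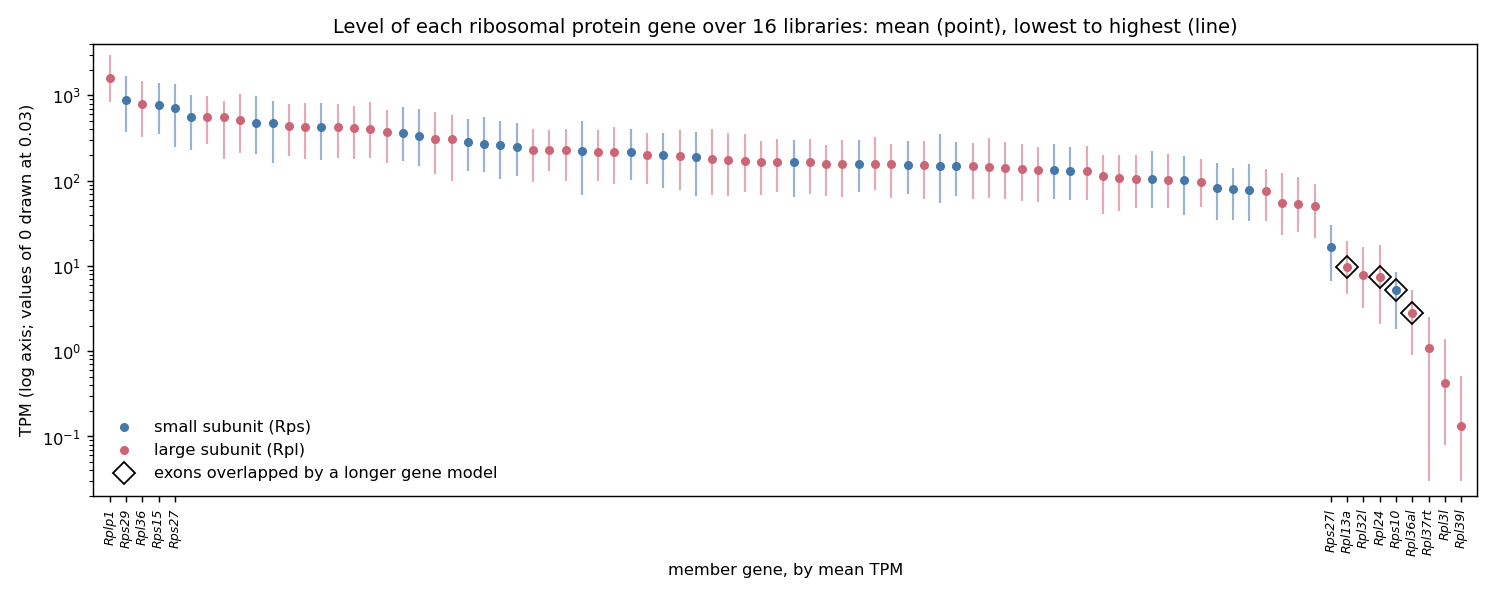
Mean TPM (points) and lowest to highest TPM over 16 libraries (lines, log axis, values of 0 drawn at 0.03) of the 84 members above 0 in any library, ordered by mean and coloured by subunit, with names for the 5 highest and for those with a mean under 20 TPM. Levels run from 1585 TPM for Rplp1 down to 0.134 TPM for Rpl39l, and the 4 members marked by diamonds, between 2.82 and 9.74 TPM, are those with exons inside a longer gene model.

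At the low end, 8 members had means between 0 and 7.79 TPM. They were Rpl32l, Rpl24, Rps10, Rpl36al, Rpl37rt, Rpl3l, Rpl39l and Rpl10l. Rpl3l, the muscle form of Rpl3, had 0.420 TPM and 1 to 12 reads per library, whereas Rpl3 itself had 180 TPM. Rpl39l and Rpl10l, the testis forms of Rpl39 and Rpl10, had 0.134 TPM and 0 TPM, beside 227 and 228 TPM for the common forms. For Rpl10l, 0 of 191.8 M reads allow up to 0.0156 reads per 1000000, by counting error only. These 3 were the only members that did not reach 1 TPM in at least 5 libraries, so that 82 members were tested.

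Rpl24, Rps10 and Rpl13a encode proteins found in every ribosome, yet their means were 7.45, 5.15 and 9.74 TPM. Together with Rpl36al, at 2.82 TPM, they were the 4 lowest of the 79 tested members typed protein-coding, the other 75 lying between 16.7 and 1585 TPM. In GENCODE M21 these were also the 4 members whose exons overlap those of a longer gene model on the same strand, a relation seen after their levels. Gm28037 covers 47.0% of the exon bases of Rpl24, Gm45713 35.4% of Rpl13a, Gm49383 24.5% of Rpl36al and RPS10-NUDT3 20.6% of Rps10. These models held 0 reads over the 16 libraries, apart from 20 reads for Gm49383. Whether the overlap bears on the low levels was not tested. Rps10 read 8.59, 6.33, 4.14, 5.98 and 3.54 TPM in the chow libraries and 4.42, 6.99, 2.70, 8.21 and 1.83 TPM in the HFD + L-NAME libraries. With NO2-OA it had a lowest value of 2.70, a median of 5.26 and a highest of 7.03 TPM, and the 3 groups overlapped.

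Ribosomal protein genes have many processed copies, and the table listed 226 rows with a -ps symbol. Of these 190 were above 0 and 124 had a mean of at least 1 TPM. The 3 highest were Rps12-ps3 at 632 TPM, beside 103 TPM for Rps12, Rpl21-ps15 at 516 TPM, beside 53.5 TPM for Rpl21, and Rps10-ps2 at 275 TPM, beside 5.15 TPM for Rps10. GENCODE M21 types Rpl21-ps15 and Rps10-ps2 as processed pseudogenes, but Rps12-ps3 and some other -ps rows, such as Rpl10-ps3, as protein-coding. At the median member 36.8% of the 100-base stretches of the main transcript also occurred in another gene's transcript, and across 83 members this share had a Spearman's rho of -0.04 with mean level. Levels of single members that share sequence with a copy are therefore uncertain in size, and their part in the differences between groups was not tested.

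Close paralogs among the members showed the same limit. Rps27rt has a coding sequence identical to that of Rps27 in all 255 bases, and the table gave them 224 and 702 TPM. Rpl35rt differs from Rpl35 in 1 of 372 coding bases, with means of 173 and 195 TPM. Rps27l, a paralog of Rps27 that p53 induces in human cells, differs in 61 of 255 bases and can be told apart. Both coding sequences are shown (GENCODE M21, GRCm38, 5′ to 3′) with the differing bases in capitals, as is the 78-base coding sequence of Rpl41, the shortest here. The whole gene of Rps27, noncoding parts included, spans chr3:90212522-90213651 on the minus strand. That of Rps27l spans chr9:66946086-66949516 on the plus strand and that of Rpl41 chr10:128548114-128549305 on the minus strand.
Rps27: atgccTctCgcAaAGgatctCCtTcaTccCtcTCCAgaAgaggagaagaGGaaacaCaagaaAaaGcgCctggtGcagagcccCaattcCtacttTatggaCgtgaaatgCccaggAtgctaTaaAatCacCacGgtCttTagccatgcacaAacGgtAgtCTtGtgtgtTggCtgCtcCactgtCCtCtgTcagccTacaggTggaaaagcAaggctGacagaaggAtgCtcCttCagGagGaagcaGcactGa
Rps27l: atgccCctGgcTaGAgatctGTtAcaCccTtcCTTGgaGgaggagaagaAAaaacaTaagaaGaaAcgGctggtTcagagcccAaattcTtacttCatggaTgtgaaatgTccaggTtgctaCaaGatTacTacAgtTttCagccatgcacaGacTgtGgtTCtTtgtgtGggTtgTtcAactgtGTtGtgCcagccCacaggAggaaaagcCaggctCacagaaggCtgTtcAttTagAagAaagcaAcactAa
Rpl41: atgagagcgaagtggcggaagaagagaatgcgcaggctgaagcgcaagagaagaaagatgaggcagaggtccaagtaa

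Rps27l was low throughout. It had 27.2, 24.0, 9.82, 21.2 and 9.75 TPM in the chow libraries, 23.3, 15.7, 7.88, 30.0 and 13.1 TPM with HFD + L-NAME, and a range of 6.64 to 21.3 TPM with a median of 14.4 under NO2-OA. The groups overlapped, and its log2 difference of HFD + L-NAME against chow was -0.04 ± 0.40 (SE).

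The members moved together from library to library. The median of all 85 members per library ran from 74.7 TPM in NO2-OA 2 to 318 TPM in chow 1. Chow 1 held the highest value of 76 of the 82 tested members. HFD + L-NAME 3 held the lowest value of 39, NO2-OA 2 of 25 and HFD + L-NAME 5 of 17. These are counts on TPM as deposited, of which very short genes took 65.8% in NO2-OA 2 and 65.5% in HFD + L-NAME 5. As a share of reads the members took 2.00% and 2.42% in these libraries, beside 0.957% in HFD + L-NAME 3. On the log2(TPM + 1) scale the within-group SD of a member had a median of 0.62. Once each library was centred on its member median, the SD over the 16 libraries had a median of 0.14, against 0.58 for 845 other protein-coding genes with a mean of at least 50 TPM, which were centred the same way. The centring value comes from the members themselves, so this is a description.

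The steadiest members after centring were Rpl27a, a large-subunit protein, with an SD of 0.06, then Rpl6, Rpl30 and Rpl38 at 0.08 and Rps25 at 0.09. Rpl27a had 310.0, 253, 118, 220.4 and 148 TPM in the chow libraries and 142, 180.3, 69.4, 254 and 92.6 TPM with HFD + L-NAME. Under NO2-OA its values ran from 76.5 to 190.0 TPM with a median of 141. It was high in chow 1, chow 2 and HFD + L-NAME 4 and low in HFD + L-NAME 3, and the groups overlapped.

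The least steady tested members were Rpl37rt, Rpl41, Rpl32l, Rpl24 and Rps27a, with centred SDs of 0.60, 0.49, 0.48, 0.48 and 0.47. Rpl37rt, Rpl32l and Rpl24 were near the low end, where 0 to 123 reads stood behind a value. Rpl41 and Rps27a had more reads, 1535 to 8971 and 898 to 6145 per library. Of the 100-base stretches of Rps27a, 69.1% also occurred in another gene's transcript, against 13.0% for Rpl41. The copy Rps27a-ps2 stood at 248 TPM beside 150 TPM for Rps27a, whose values are therefore uncertain in size.

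Rpl41 had 868, 766, 315, 549 and 625 TPM in the chow libraries and 498, 634, 723, 696 and 227 TPM with HFD + L-NAME. Under NO2-OA it ran from 180.4 to 639 TPM with a median of 563. In HFD + L-NAME 3, where 39 members were at their lowest, Rpl41 stood 3.19 log2 units above the library's member median, against 1.24 to 2.13 in the other 15 libraries. Rplp1 stood 4.08 above it there, against 2.99 to 3.44 elsewhere, and Rplp0 2.57, against 1.47 to 2.08. That library also had the highest summed platelet markers of all, 31976 TPM, and small-subunit genes made up 34.9% of its member TPM, against 38.8% to 42.4% in the others. The part of platelet RNA in this was not tested.

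Rps27a, made as a fusion of ubiquitin with a small-subunit protein, had 356, 237, 127, 165 and 119 TPM in the chow libraries. With HFD + L-NAME it had 54.5, 144, 57.6, 319 and 80.5 TPM, and under NO2-OA a lowest of 56.3, a median of 139.7 and a highest of 172 TPM. Relative to the member median it was at -1.44 log2 units in HFD + L-NAME 1 and -1.35 in NO2-OA 5, and between -0.43 and 0.25 in the other 14 libraries. These 2 libraries come from different groups, and the group ranges overlapped.

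**Figure D2:**
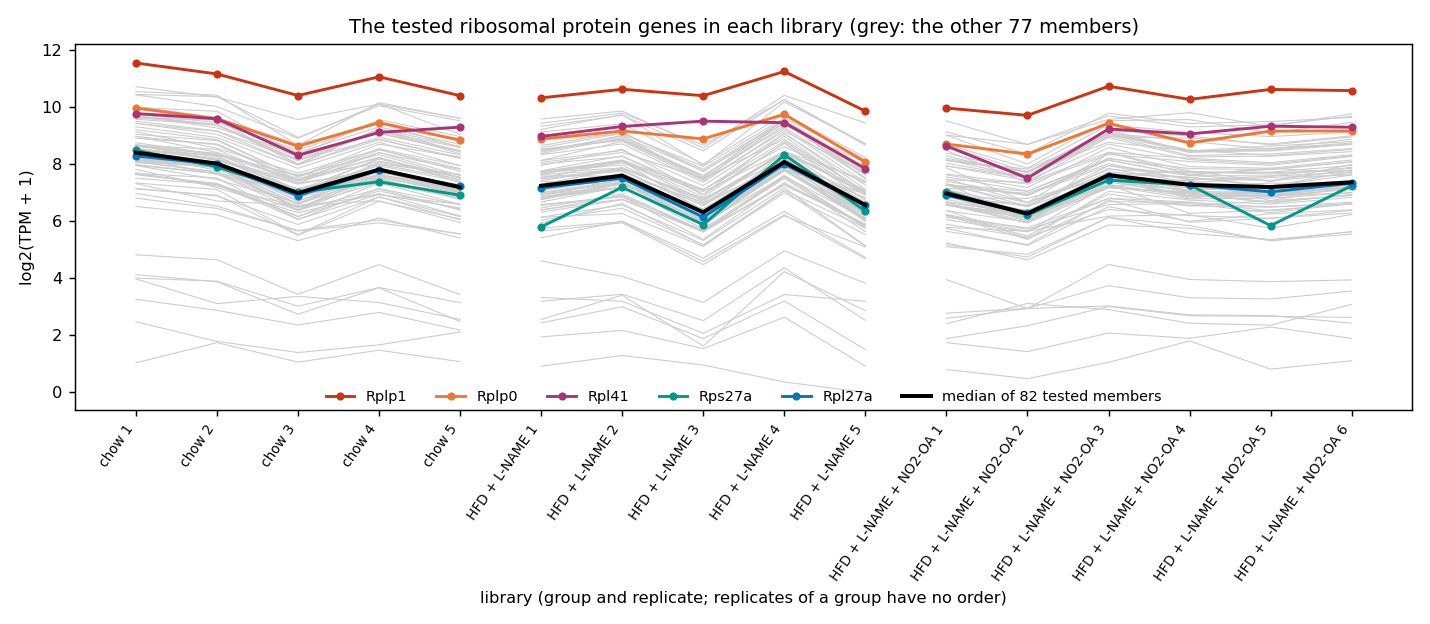
Values of log2(TPM + 1) of the 82 tested members in each of the 16 libraries, with lines joining the values of 1 gene within a group only to let it be traced, 5 named genes in colour and the median of the 82 members in black. Most grey lines run in parallel with the median, while Rpl41, Rplp1 and Rplp0 stay high in HFD + L-NAME 3 and Rps27a is low in HFD + L-NAME 1 and NO2-OA 5.

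Summed over the 85 members, ribosomal protein genes took 3.87%, 3.12%, 1.45%, 2.72% and 1.76% of TPM in the chow libraries. In the HFD + L-NAME libraries they took 1.74%, 2.27%, 1.06%, 3.23% and 1.08%. With NO2-OA the share was 0.957% at the lowest, 1.77% at the median and 2.32% at the highest. The means were 2.59% ± 0.99 (SD, n = 5), 1.88% ± 0.91 (n = 5) and 1.71% ± 0.48 (n = 6). Chow 1 and chow 2 were the highest of the chow group, HFD + L-NAME 4 exceeded 4 of the 5 chow libraries, and all groups overlapped.

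On the TPM scale the order of the groups depended on the libraries kept. Over run 1 alone the share of TPM was 1.98% ± 0.66 (n = 3) for chow, 2.19% ± 1.09 (n = 3) for HFD + L-NAME and 1.87% ± 0.33 (n = 5) with NO2-OA. In the same libraries the shares of protein-coding TPM were 5.64%, 4.84% and 3.97% and those of reads 2.13%, 1.81% and 1.76%, in the order of chow, HFD + L-NAME and NO2-OA, so that chow stayed highest on these scales, within the spread of HFD + L-NAME. The 4 libraries with peritoneal macrophage genes belong to run 2, so that without them the chow and HFD + L-NAME values are the same as for run 1. Run 2 held 2, 2 and 1 libraries of the groups, too few for means of their own.

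As a share of protein-coding TPM, which leaves out the very short RNAs, the members took 6.87% ± 2.05, 5.19% ± 2.21 and 4.32% ± 1.22 in the 3 groups. As a share of recovered reads, which no gene length enters, they took 2.47% ± 0.56, 1.93% ± 0.67 and 1.80% ± 0.29. By reads HFD + L-NAME 3 had the lowest share, 0.957%, and chow 1 the highest, 3.29%. The chow mean was the highest on all 3 scales with all libraries, by less than 1 SD of the chow group against HFD + L-NAME. Against the NO2-OA group the gap was more than 1 such SD on protein-coding TPM and on reads, and less on all TPM. In bulk libraries fewer cells of a type and less RNA per cell cannot be told apart.

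**Figure D3:**
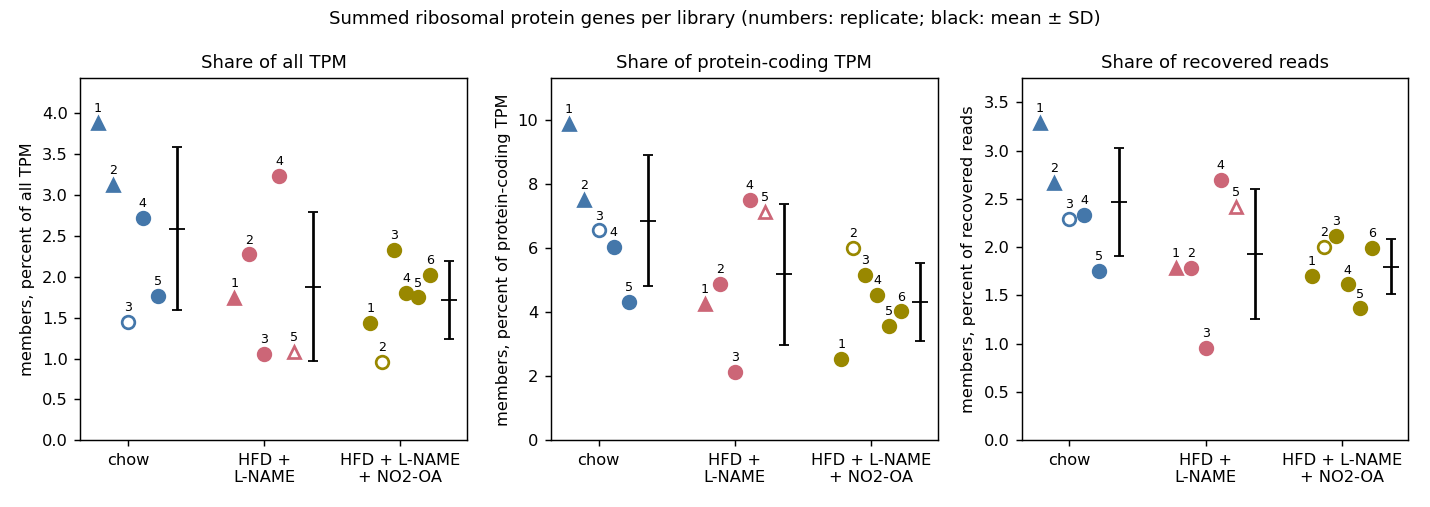
Share of the summed members in each library (points, numbered by replicate) of all TPM, of protein-coding TPM and of recovered reads, by group, with mean ± SD in black. Triangles mark libraries with peritoneal macrophage genes and open symbols the 3 libraries with under 25% protein-coding TPM, and the 3 groups overlap on each scale.

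Setting HFD + L-NAME against chow asks how the diet and the inhibitor together bear on blood cells. No member was called higher or lower by limma at an adjusted p under 0.05, where 0% of 16365 tested genes were called higher and 0.00611% (1 gene) lower. At an unadjusted p under 0.05 the count of members was 0 as well, against 0.189% of all genes higher and 2.74% lower. Limma-voom on recovered reads called 0 members and had 1 lower at an unadjusted p under 0.05, where 2.02% of all genes were higher and 1.99% lower. All 82 tested members, but 69 under scaling by the median of ratios, had a log2 difference below 0, with a median of -0.54, while the median of all tested genes was -0.29. The lowest adjusted p of a member in limma was 0.816. In 0 members did the groups fail to overlap, which 0.110% of all genes did with HFD + L-NAME lower.

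The member with the lowest difference was Rps27a, at -0.83 ± 0.49 (SE) on the log2 scale. Rpl12, a protein at the base of the P stalk, had 318, 242, 113, 198 and 126 TPM in the chow libraries and 107, 156, 63.1, 243 and 62.5 TPM with HFD + L-NAME. Its log2 difference was -0.75 ± 0.44, and in run 1 alone Rpl12 was at -0.08 and Rps27a at 0.03. Rps24, Rps27rt and Rpl6l followed at -0.69 each. Differences were nearest to 0 for Rps27l, at -0.04, Rpl36al at -0.05, Rpl10, which joins the large subunit last, at -0.18, Rpl41 at -0.20 and Rps10 at -0.29. The small subunit had a median of -0.55 over 31 genes and the large subunit one of -0.51 over 51 genes, against 0.00 and 0.06 in run 1 alone.

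These differences depended on the libraries. In run 1 alone, 3 libraries against 3, the median of the members was 0.04 on the log2 scale and 47 of 82 were above 0, and the same fit called 0 members. All tested genes had a median of 0.13 there, so that the members lay 0.09 below it, compared with 0.25 below it over all libraries. Limma-voom on recovered reads used library sizes scaled by the median of ratios. It gave a member median of -0.08 in run 1 alone, with 25 of 82 above 0, and of -0.13 over all libraries. Recovered reads scaled to depth alone gave -0.42 over all libraries, beside -0.21 for all tested genes. Scaling TPM by the median of ratios set the median of all genes at 0.02 in place of -0.29, a shift of over 0.1. The members then had a median of -0.14, with 13 of 82 above 0. Chow 1 and chow 2, with the highest member shares of their group, also carried the peritoneal macrophage genes, whose part was not tested.

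Markers of blood cells differed between the groups beside the members. The 8 T cell markers summed to 325 ± 122 TPM (SD) in chow, 159 ± 86.7 with HFD + L-NAME and 193 ± 45.3 with NO2-OA, and ranged from 166 to 428, 63.9 to 280.4 and 137 to 273 TPM. The 7 NK cell markers summed to 109 ± 51.1, 46.7 ± 40.4 and 56.2 ± 17.3 TPM, with ranges of 40.2 to 163, 15.0 to 116 and 29.6 to 75.4 TPM. Both means were highest in chow, as the mean member share was. The 8 B cell markers summed to 1279 ± 693, 939 ± 465 and 980 ± 435 TPM. The 7 erythroid markers in the table summed to 17371 ± 17814, 28303 ± 28195 and 56346 ± 60120 TPM. With all libraries, the B cell mean was highest and the erythroid mean lowest in chow. In the same group order, monocyte marker means were 1584, 2202 and 1596 TPM, neutrophil 896, 763 and 676, and platelet 7427, 11466 and 8551. The ranges of all 3 groups overlapped for each list. Chow 1 and chow 2, of run 2, had 1547 and 2229 TPM of B cell markers, against 383 to 1330 in the other chow libraries. Their erythroid markers summed to 779 and 12207 TPM, against 3140 to 43022, so both orders depended on the libraries kept. The part of these cells in the member differences was not tested.

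Setting the NO2-OA group against HFD + L-NAME asks what NO2-OA adds on the same diet. The members had a median log2 difference of -0.01, with 32 of 82 above 0, beside a median of 0.08 over all tested genes. By limma 0 members were called, where 0.00611% of all genes were called higher and 0% lower, and 0 had an unadjusted p under 0.05, beside 0.483% and 0.464% of all genes. Limma-voom called 0, with 4 members lower and 0 higher at an unadjusted p under 0.05, where 1.19% of all genes were lower and 1.41% higher. The lowest adjusted p of a member in limma was 1.00, and in 0 members did the groups fail to overlap, as 0.0183% of all genes did in each direction.

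The lowest differences belonged to Rpl32l at -0.33, Rps27l at -0.26, Rpl39 at -0.22 and Rpl24 at -0.20 on the log2 scale. Among the highest were Rpl37rt at 0.30, Rps27a at 0.13, Rps10 at 0.13 and Rps27rt at 0.09. All these lay within 1.1 SE of 0. The median moved to -0.21 without HFD + L-NAME 3 and to 0.22 without HFD + L-NAME 4, so that its sign rested on single libraries. In run 1 alone it was -0.08, without the libraries with peritoneal macrophage genes -0.22, and by the median of ratios -0.17, with 2 of 82 above 0.

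The NO2-OA group against chow shares its libraries with the other comparisons, and its values are given beside them. The members had a median log2 difference of -0.56, with 1 of 82 above 0 (2 under the median of ratios), while all tested genes had -0.20. Limma called 0 members and 0% of all genes in either direction. At an unadjusted p under 0.05 were 0 members, beside 0.428% of all genes higher and 2.37% lower, and the lowest adjusted p of a member was 0.977. Groups failed to overlap for 0 members and for 0.0122% of all genes with NO2-OA higher and 0.263% with it lower.

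In this comparison limma-voom on recovered reads called 0 members, but 33 of 82 had an unadjusted p under 0.05 on the lower side, where 2.30% of all tested genes were, with 2.75% on the higher side, and the median difference of the members was -0.32 beside 0.00 over all genes. Since the members move as a block, they are not 33 separate observations. In run 1 alone the same fit had 0 members at an unadjusted p under 0.05 and a median of -0.21, and without the 4 libraries with peritoneal macrophage genes it had 2 and -0.23. The median of all genes was 0.00 and -0.02 in these fits. With recovered reads scaled to depth alone, over all libraries, the members had a median of -0.44, beside -0.11 over all genes.

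By limma on TPM the lowest differences were those of Rpl35rt, at -0.76 ± 0.41 (SE), Rpl12 at -0.71 ± 0.42, Rps27a at -0.70 ± 0.47, Rps20 at -0.68 and Rps24 at -0.67. The highest were those of Rpl36al at 0.00, Rps10 at -0.16, Rpl37rt at -0.27, Rpl13a at -0.28 and Rps27l at -0.30. Leaving out single libraries moved the median of the members between -0.74 and -0.38. In run 1 alone it was -0.04, with 30 of 82 above 0, beside 0.12 over all genes, and without the 4 libraries with peritoneal macrophage genes -0.20, beside 0.01. When the 3 libraries where protein-coding genes took under 25% of TPM were left out, the medians of the 3 comparisons were -0.56, -0.04 and -0.58.

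**Figure D4:**
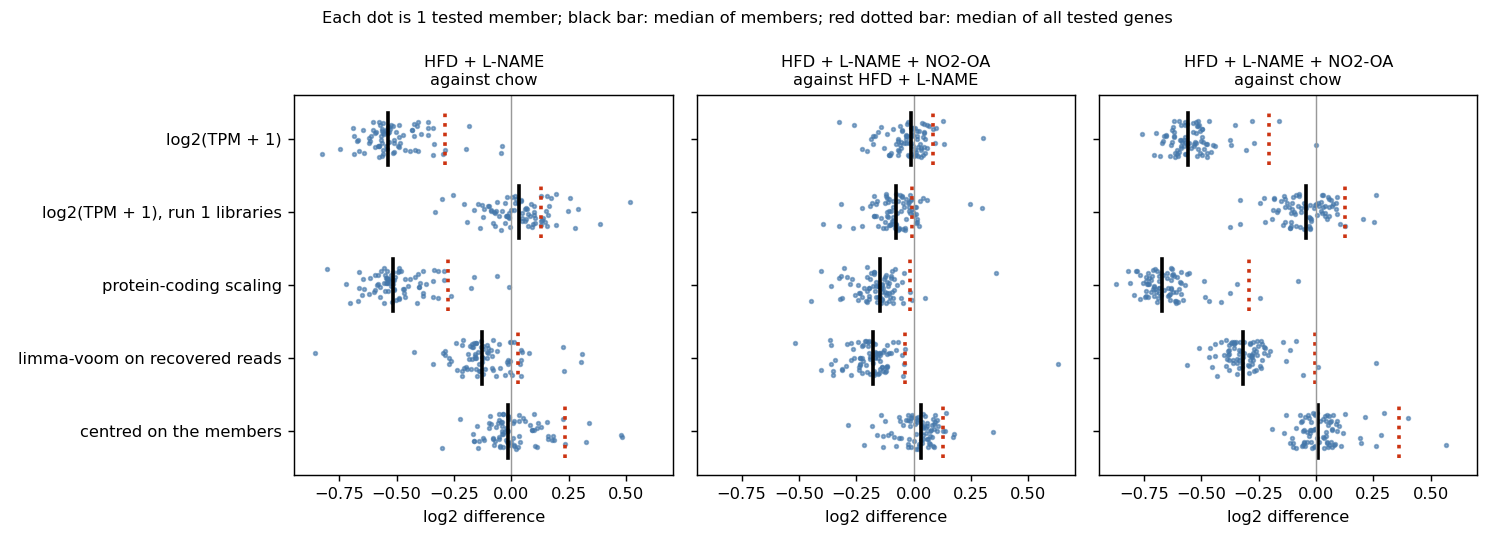
Log2 differences of the 82 tested members (dots) in the 3 comparisons under 5 ways of scaling or choosing libraries, with the median of the members (black bar) and of all tested genes (red dotted bar). Members spread around their own median in each row, from -0.83 to -0.04 in the first row for HFD + L-NAME against chow. That median shifts between rows, in this comparison from -0.54 to 0.04 when only run 1 is kept.

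Centred on the members in each library, which asks only for shifts of single members within the family, 0 members and 0% of all genes were called in any of the 3 comparisons. At an unadjusted p under 0.05 were 1, 0 and 2 members on the higher side, in the order above, beside 4.88%, 2.80% and 21% of all genes, and 0 members on the lower side, beside 0.226%, 0.134% and 0.0244% of all genes. Rps27l was 0.48 ± 0.17 (SE) above its place in chow with HFD + L-NAME, at an adjusted p of 0.705 in limma, and Rpl36al 0.57 ± 0.23 above it with NO2-OA, at an adjusted p of 0.234. The centred values of Rps27l were highest in HFD + L-NAME 1 and 5, both of run 2, at -2.63 and -2.74. They were -3.53, -3.16 and -3.11 in HFD + L-NAME 2, 3 and 4, and between -3.76 and -3.33 in chow. Rpl36al had a mean of only 2.82 TPM and a difference of 0.00 before centring. The added 1 TPM draws the differences of such low genes toward 0, and centring on higher members then raises them. Its centred difference can therefore not be read as a shift within the family.

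By role, the P stalk comes first. Rplp0 had 993, 763, 392, 697 and 454 TPM in the chow libraries, 469, 568, 469, 854 and 267 TPM with HFD + L-NAME, and 324 to 684 TPM with a median of 496 under NO2-OA. Its log2 difference of HFD + L-NAME against chow was -0.34 ± 0.44 (SE). Rplp1 had 2966, 2273, 1346, 2119 and 1341 TPM in the chow libraries and 1271, 1566, 1340.0, 2412 and 921 TPM with HFD + L-NAME. Under NO2-OA it ran from 831 to 1686 TPM with a median of 1371. Rplp1 and Rplp2, its partner in the stalk, were at -0.42 and -0.65 in the same comparison, and the 3 groups overlapped for each.

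Rpl5 and Rpl11 form with the 5S rRNA the particle that binds Mdm2 when ribosome assembly fails, which stabilises p53. Rpl5 had 293, 253, 121, 195 and 132 TPM in the chow libraries and 117, 174, 60.8, 251 and 71.0 TPM with HFD + L-NAME. Under NO2-OA it ran from 74.7 to 193 TPM with a median of 126. Rpl11 ran from 43.7 TPM in NO2-OA 2 to 202 TPM in chow 1. Log2 differences of HFD + L-NAME against chow were -0.67 and -0.54 for the pair, and groups overlapped. Of 10 p53 target and regulator genes 0 were called in any comparison, with medians of -0.25, -0.02 and -0.22 in the order of the comparisons above.

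The 20 mouse counterparts of human Diamond-Blackfan anaemia genes, among them Rps19, Rps26 and Rpl35a, had medians of -0.50, -0.03 and -0.52. All 20 were below 0 against chow in both diet groups, and 0 were called, but in run 1 alone the medians against chow were 0.07 for HFD + L-NAME and -0.02 for NO2-OA. Their medians lay close to those of all tested members, -0.54, -0.01 and -0.56.

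Other genes of ribosome production and translation were described by lists, with no test of a list. Fau, Rpsa and Rack1, ribosomal proteins outside the naming rule with means of 591, 293 and 118 TPM, had log2 differences of -0.52, -0.56 and -0.53 for HFD + L-NAME against chow. The 78 mitochondrial ribosomal protein genes, which serve another ribosome, had medians of -0.36, 0.13 and -0.24, and the genes with the highest levels, Mrpl24 and Mrpl54, had -0.57 and -0.53 for HFD + L-NAME against chow.

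For ribosome assembly, the 14 genes of RNA polymerase I had medians of -0.44, 0.12 and -0.30 over the 3 comparisons, and the 39 assembly factors -0.43, 0.12 and -0.30. Npm1 and Ncl, abundant nucleolar proteins with means of 102 and 59.9 TPM, were at -0.61 and -0.56 for HFD + L-NAME against chow. Ribosomal protein chaperones had a median of -0.42 over 8 genes and the snoRNA host genes, whose spliced RNAs often carry TOP motifs, one of -0.36 over 10 genes. With NO2-OA the snoRNA hosts had -0.54 against chow, with Gas5 at -0.57 and Snhg8 at -0.59.

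Translation factors with TOP mRNAs had a median of -0.40 over 17 genes for HFD + L-NAME against chow and factors of initiation without TOP motifs -0.35 over 19. Eef1a1, the main elongation factor, with a mean of 1386 TPM, was at -0.47, while Pabpc1, the poly(A)-binding protein, was at -0.07 and, with NO2-OA against HFD + L-NAME, at 0.40. The 15 genes of mTORC1 and of the control of TOP mRNAs, Larp1 at 35.0 TPM among them, had a median of -0.28, beside -0.29 for all genes. Myc, a driver of ribosome production, was at -0.23, 0.33 and 0.10 in the 3 comparisons, and the 7 tested factors for the transcription of ribosomal protein genes had a median of -0.32 for HFD + L-NAME against chow. Under scaling by the median of ratios most list medians were nearer to 0, and for HFD + L-NAME against chow they changed sign to 0.07 for mTORC1, 0.12 for p53, 0.06 for transcription of ribosomal protein genes and 0.02 for initiation factors. In the order of the comparisons the medians were -0.04, 0.01 and -0.04 for mitochondrial ribosomal proteins, -0.07, -0.01 and -0.08 for assembly factors, -0.02, -0.11 and -0.10 for factors with TOP mRNAs and -0.13, -0.13 and -0.28 for the ribosomal proteins outside the rule. In run 1 alone the 11 list medians were all above 0 for HFD + L-NAME against chow, from 0.08 for mitochondrial ribosomal proteins to 0.25 for snoRNA hosts, and lay between -0.22 and 0.21 for NO2-OA against chow. In none of these lists was a gene called in any comparison by limma, and 0 genes of them had an unadjusted p under 0.05.

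**Figure D5:**
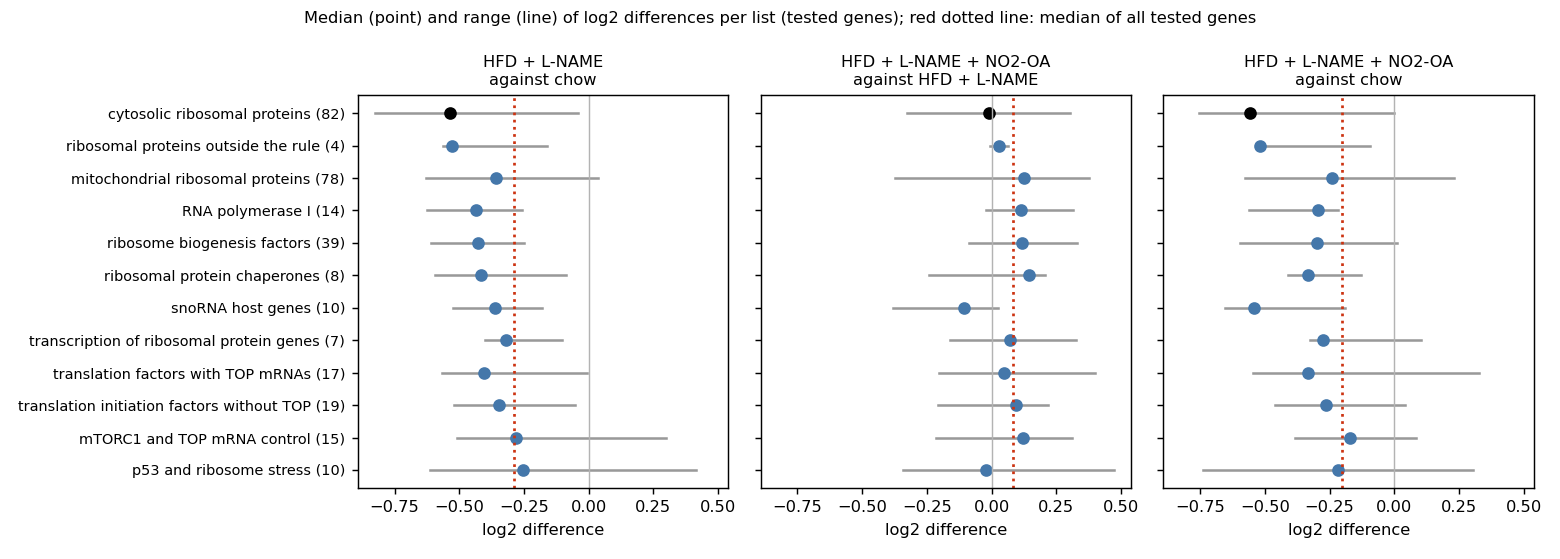
Median (points) and range (lines) of log2 differences on the log2(TPM + 1) scale for the 82 tested cytosolic ribosomal protein genes (black) and 11 lists of other genes, by comparison, with the median of all tested genes as a red dotted line. The cytosolic ribosomal proteins and those outside the naming rule lie farthest below that line for HFD + L-NAME against chow on TPM as deposited, at -0.54 and -0.53, and no gene in any list passed the test.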

How the data were processed

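RNA of mouse PBMCs was sequenced as read pairs of 2 x 150 bases, per the labels' protocols. The submitters' processing notes name bcl2fastq, Trim Galore, HISAT2 and featureCounts and the builds mm39 and hg38. Counting settings, strand and the annotation release are not given in the sources used here. The deposited values are TPM per gene and library, as the authors computed them, with 51179 genes and a sum of 1000000 in each library. In each library TPM values were whole multiples of 1 read's worth (100.0% of values within 0.001), so that read numbers were recovered, and the implied gene length was the exon length less 149 bases in 95.9% of 9137 genes checked. Depth was 4.94 M to 25.5 M reads, a range of 5.16-fold, which limits members with few reads.

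From these values log2(TPM + 1) was tested with limma 3.58.1 (R 4.3.3, variance trend on, two-sided) over 16365 genes with at least 1 TPM in at least 5 libraries, with all 3 groups in 1 fit and no covariates. Calls are at a Benjamini-Hochberg adjusted p under 0.05 over all tested genes. Fold changes on the log2(TPM + 1) scale understate the change of low genes. Errors of differences are standard errors of that fit, and the other errors are SDs over libraries. Limma-voom on recovered reads, other scalings, pseudocounts, filters and choices of libraries were alternatives. The limma-voom fits used library sizes scaled by the median of ratios, so they share that scaling with the median-of-ratios fit on TPM. Python 3.11.15 with pandas 2.3.3 was used for the rest. The limma test of HFD + L-NAME against chow was also run on simulated counts whose genes varied independently. Those genes did not move as a block, as the members do, so that run checks the code rather than the fit to these data.

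Groups came from the titles in the labels. Members named are the 10 highest and 8 lowest by mean TPM, the 5 lowest and 5 highest log2 differences per comparison, the P stalk, the 5S particle, the paralogs, and the 5 most and 5 least variable after centring. Of the other lists, the 2 genes of highest mean TPM and the 2 of smallest p per comparison could be named. Members set beside their processed copies or shown for their sequences were chosen after the values were seen. The members and lists were chosen with earlier results of these data known. A few genes that the naming rule picks are not reported here.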

Additional observations from a re-analysis of the deposited data

Results flagged for a closer look

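In 120 groups of 5 or 6 libraries, over the named members and the summed shares, the gap of the most extreme library to the next was set against Dixon's critical value, which chance passes in about 1 in 20 groups. It was passed in 2 groups. Rpl32l, typed a processed pseudogene, had 3.20 TPM in HFD + L-NAME 3 and 8.14 to 9.75 TPM in the other 4 libraries of that group. Rpl37rt had 2.49 TPM in NO2-OA 4 and 0.397 to 1.16 TPM in the other 5 libraries of the NO2-OA group.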

How the results depend on the processing

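No member was called under any alternative, leave-one-out fits included, in any comparison. Of all tested genes, 1 was called for HFD + L-NAME against chow, and this became 0 with a pseudocount of 10 TPM, with no filter, under median-of-ratios and protein-coding scaling, centred on the members, by limma-voom (also in run 1 and without the libraries with peritoneal macrophage genes), without the 3 libraries under 25% protein-coding TPM, over full exon length and on recovered reads scaled to depth alone. It was 4 with only the 2 groups compared and 2 in run 1 alone and without the peritoneal macrophage libraries. For NO2-OA against HFD + L-NAME 1 gene became 2 with a pseudocount of 0.1 TPM, with the library number run as a term and without the peritoneal macrophage libraries, 3 in run 1 alone, and 0 under those same scalings and limma-voom fits and without the 3 libraries. For NO2-OA against chow 0 became 1 in run 1 alone. The cause was not tested. Leaving out 1 library at a time gave 0 to 2, 0 to 4 and 0 to 1 genes, and member medians of -0.78 to -0.33, -0.21 to 0.22 and -0.74 to -0.38. The share of TPM ran from 2.26% to 2.87% for chow, 1.54% to 2.08% for HFD + L-NAME and 1.59% to 1.87% for NO2-OA.

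As a share of protein-coding TPM the means were 6.87%, 5.19% and 4.32%, and with NO2-OA the share over full exon length was 2.34%. The settings with full exon length, reads scaled to depth alone, and limma-voom with libraries left out were chosen after seeing the data. For NO2-OA against chow, limma had 25 of 82 members lower at an unadjusted p under 0.05 under median-of-ratios scaling, beside 302 of all 16365 genes, 6 under protein-coding scaling, beside 508, and 0 on TPM as deposited. Of 1040 alternative values of 30 named member differences, 113 changed sign and 60 moved by over 1 SE, none of them called. The planned edgeR fit was not run, since the deposited values are TPM.

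With the replicate number as a block the member medians were -0.54, -0.07 and -0.61, and it changed no call of a member. Same-numbered libraries correlated over 0.1 in 3 of 15 pairs, between -0.51 and 0.51, so that the numbers were not taken to pair the libraries.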

Other observations

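Paralogs outside the naming rule are described with no test of the list. Rpl22l1 had a mean of 29.8 TPM, Rpl7l1 17.1 TPM and Rps4l 1.14 TPM over the 16 libraries. Their log2 differences for NO2-OA against chow were -0.61, -0.28 and -0.28, and none was called by limma. The rows with a -ps symbol together took between 0.307% and 1.25% of TPM in a library.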
